A study of Mus musculus with 22 samples.

Results

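Lipopolysaccharide (LPS, a component of the outer wall of Gram-negative bacteria) was compared with no LPS in mouse bone marrow-derived macrophages that all received β-hydroxy-β-methylbutyrate (HMB, a breakdown product of the amino acid leucine). The comparison took the HMB+LPS arrays numbered 2, 3 and 4 in their titles against the HMB arrays numbered 1, 2, 3 and 4, which are 7 of the 22 arrays of the series. HMB was thus present on both sides, and LPS was the labelled difference. The rule that picks these arrays reads their titles, and the comparison was proposed with earlier results of these data known.

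The series held 6 untreated M0 macrophage arrays (Ctrl), 6 HMB arrays, 5 LPS arrays and 5 HMB+LPS arrays on the Clariom S platform. Marrow cells of C57BL/6 mice, of an age not given in the sources used here, had been grown into macrophages in medium conditioned by L929 fibroblasts. The dose of HMB was 1 mM, that of LPS was 10 ng/ml, and exposure lasted 48 h. The labels do not say whether arrays of a group came from separate animals or cultures, so any p-value rests on the scatter among these arrays alone, and that scatter may be technical.

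Macrophages sense LPS through the receptor Tlr4 with its partners Cd14 and Ly96, and signal through the adaptors Myd88 and Ticam1. The NF-kB transcription factors downstream of these adaptors turn on cytokine, chemokine and enzyme genes, together with inhibitors that limit the signal, while the interferon branch turns on antiviral genes. Macrophages driven by LPS are called M1-like, and those of a repair type, often marked by Mrc1, are called M2-like.

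All values are the deposited log2 values of 1 probe set per gene, so that a difference of 1 is 1 step on the log2 scale. The median of all tested differences was -0.01. Centring each array on its median moved that median to 0.11, a shift of 0.12, and small differences are to be read against it. With that centring 949 probe sets were called higher and 910 lower, against 787 and 1073 as deposited. All 9 matched macrophage markers lay above the array's median on all 7 arrays, as did 1 of 15 markers of T, B and NK cells. That median was 5.76 to 5.98, under the median of the negative control probe sets on all of these arrays except HMB 2. Lying above it does not show that a gene was detected. Of those 9 macrophage markers, Mertk and Tyrobp fell and none rose, and the call of Tyrobp was lost without HMB+LPS 3 or HMB+LPS 4. The macrophage list averaged 15.29 to 16.29 on the HMB arrays and 15.72 to 16.04 on the HMB+LPS arrays.

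1 array stood apart within its group. HMB 1 correlated with the other 3 HMB arrays at 0.964 to 0.971, whereas those 3 correlated with each other at 0.987 to 0.989, over all tested probe sets. The 3 HMB+LPS arrays correlated with each other at 0.973 to 0.987, and with the HMB arrays at 0.942 to 0.961. Control separation, the mean of positive control probe sets minus that of negative ones, was 3.82, 3.83 and 4.28 on HMB+LPS 2, 3 and 4, and 3.78, 5.26, 4.56 and 4.43 on HMB 1 to 4. These groups overlapped, with means of 3.98 ± 0.26 (SD, n = 3) and 4.51 ± 0.60 (SD, n = 4), and an exact two-sided permutation test gave p = 0.2. The smallest p that 35 arrangements allow is 0.0286. Control separation was low on Ctrl 1 too, at 3.96 against 4.79, 4.97 and 4.72 on Ctrl 2 to 4. No HMB+LPS array carries number 1, so the comparison is not balanced for it. Of numbers 1 to 4, Ctrl 1 and HMB 1 also had the lowest mean of the interferon-stimulated genes described below, at 10.34 and 9.48. The same held for the mitosis genes, at 8.97 and 8.89. In the M2-like list Ctrl 1 was the highest, at 10.11, and HMB 1 the lowest, at 9.82. Whether arrays numbered 1 share a trait was not tested.

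Low readings set a limit on the size of many differences. The median of the negative control probe sets, taken here as a floor after the data were seen, was 5.87 to 7.18 on the HMB arrays and 6.90 to 7.24 on the HMB+LPS arrays. Of the named genes that rose, 23 lay under the floor on all 4 HMB arrays, of those that fell 21 lay under it on all 3 HMB+LPS arrays, and 4 called genes, Car2 and Hdc among them, lay under it in both groups. For such genes the fitted difference is the measured one and its size is uncertain. The same holds for other list members given below, namely Cxcl1 and Il12a (HMB arrays) and Ccr2, Cdc20, Cxcl12, Dcstamp and Timp3 (HMB+LPS arrays). Where a bound is given ("at least"), each low array was set to its own floor, so that the bound holds against that floor only. Genes under the floor on only some arrays of a group were given no bound, though their sizes are uncertain too. Among them are Mmp8, Cxcl2, Cxcl3, Serpinb2, Ccl7 and F10, each under it on 3 of the 4 HMB arrays. The 95th percentile of the negative controls was higher, 9.84 to 11.81 on the HMB arrays and 10.70 to 11.45 on the HMB+LPS arrays.

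LPS changed 1860 of 22206 probe sets in the presence of HMB (8.38% of those tested), by limma with Benjamini-Hochberg adjustment at 0.05. No filter on low values was used. Of the calls, 787 were higher (3.54%) and 1073 were lower (4.83%) with LPS, for 728 and 994 named genes. Counts in the gene lists below are to be read against these shares. Measured differences of at least 4 on the log2 scale were called for 101 genes that rose and 62 that fell, and differences of at least 8 for 21 that rose and 2 that fell. All 3 HMB+LPS arrays lay above all 4 HMB arrays at 2079 probe sets (9.36%) and below them at 2413 (10.9%). Leaving out HMB 2, HMB 3 or HMB+LPS 3 brought the count of calls to 1180, 1120 or 967.

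Of 15 matched nitric oxide and arginine genes, 5 rose and 3 fell. Nos2, the inducible nitric oxide synthase, read 15.88, 15.89 and 16.60 on HMB+LPS 2, 3 and 4 and 3.97, 4.35, 4.89 and 3.45 on HMB 1 to 4. The groups were far apart, and every HMB+LPS array was high. The difference was 11.96 ± 0.38 (SE), with an adjusted p of 2.9e-07. All 4 HMB arrays were under the floor, and against it the rise was at least 9.51. Arg1, which competes for the same arginine and is often listed as an M2-like marker, read 11.80, 12.47 and 14.10 with LPS and 3.54, 4.41, 4.11 and 3.22 without. It rose by 8.97 ± 0.53 (adjusted p = 1.05e-05), with HMB+LPS 4 the highest array, and by at least 6.18 against the floor. The mitochondrial arginase Arg2 rose by 7.31 ± 0.39 (at least 4.88), and Slc7a2, which imports arginine, by 6.25 ± 0.35. Gch1, which starts the synthesis of the cofactor tetrahydrobiopterin, rose by 1.90. Ddah1 and Ddah2, enzymes that degrade inhibitors of nitric oxide synthases, fell by 2.21 and 3.67, with all HMB+LPS arrays under the floor in both, and Oat fell by 1.44. Ddah1 was under the floor on 2 of the 4 HMB arrays as well.

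**Figure D1:**
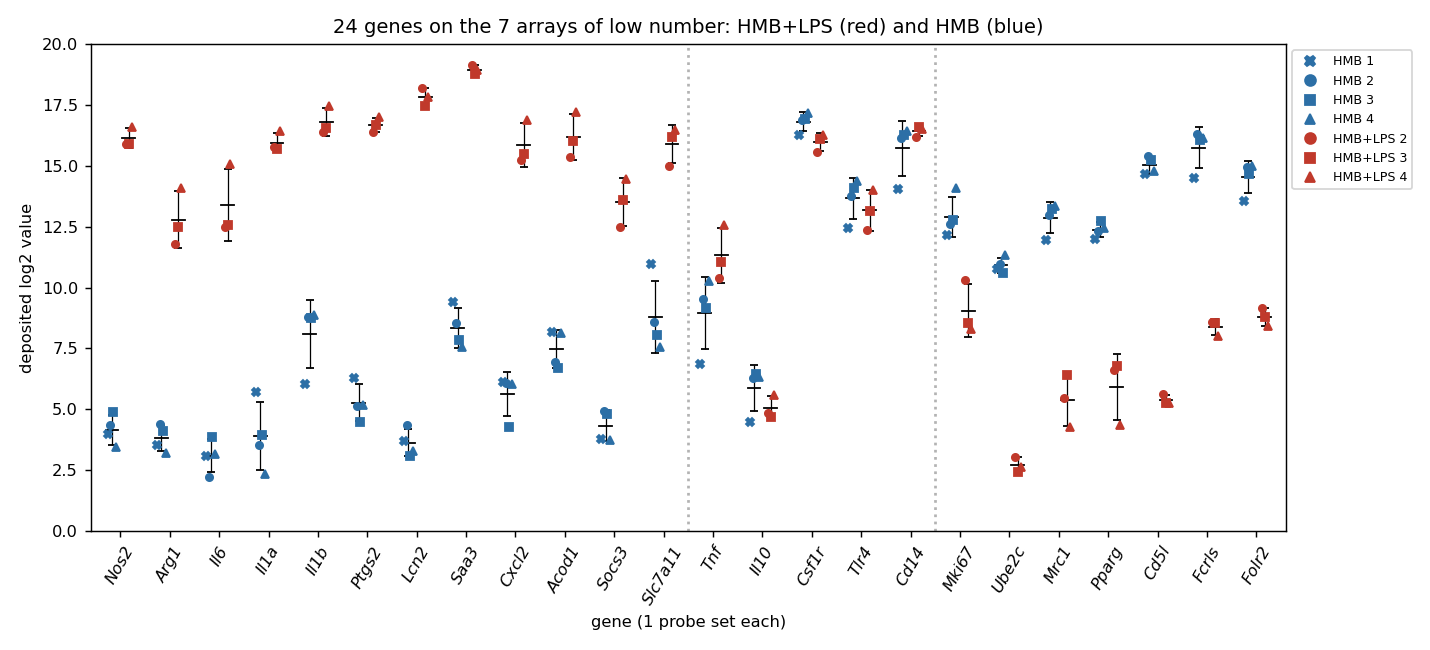
Deposited log2 values of 24 genes (y axis) on HMB 1 to 4 (blue) and HMB+LPS 2 to 4 (red), with a marker shape for each array number, and bars for the mean and SD of each group. From Nos2 to Slc7a11 all red points lie above all blue ones, Tnf to Cd14 were not called, and from Mki67 to Folr2 all red points lie below the blue ones.

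Of 28 matched inflammatory cytokines, 12 rose and none fell, with a median difference of 1.53. Without HMB 1, 12 rose and 2 fell. Il6, a cytokine that drives the acute phase response, read 12.50, 12.56 and 15.09 with LPS and 3.08, 2.22, 3.88 and 3.17 without. All HMB+LPS arrays were high, HMB+LPS 4 the most, and the difference was 10.30 ± 0.64 (adjusted p = 1.34e-05), at least 6.77 with HMB at the floor. Il1a, the alpha form of interleukin-1, read 15.76, 15.69 and 16.41 with LPS and 5.72, 3.53, 3.95 and 2.36 without, a rise of 12.06 ± 0.65, or at least 9.34. Il1b, the secreted beta form, read 16.40, 16.55 and 17.47 against 6.02, 8.78, 8.75 and 8.86. HMB 1 was the low array there, and the rise was 8.70 ± 0.67. Inhba, the activin A subunit, rose by 7.22, Il12a by 4.99 and the interleukin-1 receptor antagonist Il1rn by 4.67. Ifnb1 differed by 0.21 and did not pass the test, and it was under the floor on all 7 arrays.

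Tnf and Il10 were not called. Tnf read 10.38, 11.03 and 12.56 with LPS and 6.84, 9.52, 9.15 and 10.28 without, with a difference of 2.37 ± 0.78 and an adjusted p of 0.103. All 3 HMB+LPS arrays lay above the HMB arrays, and HMB 1 was the lowest. Il10, which restrains inflammation, read 4.85, 4.67 and 5.60 with LPS and 4.48, 6.27, 6.45 and 6.32 without, so the groups overlapped (difference -0.84 ± 0.49, adjusted p = 0.394). All 3 HMB+LPS arrays and 3 of the 4 HMB arrays were under the floor for Il10, so a change at such readings could be missed. Il12b was not matched here.

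Chemokines, which attract leukocytes, rose in 12 of 27 cases and fell in 2. The neutrophil attractants Cxcl2 and Cxcl3 rose by 10.23 ± 0.55 and 8.88 ± 0.74. Cxcl2 read 15.22, 15.48 and 16.87 with LPS and 6.12, 6.10, 4.28 and 6.02 without. Ccl5, a T cell and monocyte attractant, read 18.48, 18.19 and 18.18 against 12.47, 12.22, 10.92 and 11.22, and its HMB+LPS arrays were close together. The monocyte attractant Ccl2 rose by 8.40 and Cxcl1 by 6.80. Cxcl12, a stromal chemokine, fell by 2.17 and Ccl6 by 1.67. The interferon-induced Cxcl10 differed by 2.60 with an adjusted p of 0.0805.

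Of 32 matched NF-kB subunits, inhibitors and signalling brakes, 21 rose and none fell, with a median of 1.75. Socs3 and Socs1, which block cytokine receptor signalling, rose by 9.19 ± 0.50 and 7.12 ± 0.52. Socs3 read 12.48, 13.60 and 14.46 with LPS and 3.80, 4.93, 4.80 and 3.76 without, and its HMB arrays were under the floor (a rise of at least 6.90). The inhibitors Nfkbia and Tnfaip3 rose by 4.01 ± 0.31 and 4.43. Nfkbia read 15.30, 15.22 and 15.88 against 11.99, 11.19, 11.21 and 11.44, with the groups well separated. Among the subunits, Nfkb2 rose by 1.10, while Rel (0.68), Relb (0.25) and Rela (-0.46) were not called.

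The promoters of 3 of the largest measured rises held the kB motif, the binding sequence of NF-kB, and are shown with the motif in capitals. Each sequence runs from 130 bases before to 20 after the gene's start in RefSeq (build GRCm38.p6). They lie at chr5:30012984-30013133, forward strand (Il6), chr5:90903769-90903918, forward strand (Cxcl2), and chr5:90785971-90786120, forward strand (Cxcl3).
Il6: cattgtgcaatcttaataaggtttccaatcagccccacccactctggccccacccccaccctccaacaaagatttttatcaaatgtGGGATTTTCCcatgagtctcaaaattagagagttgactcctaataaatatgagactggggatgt
Cxcl2: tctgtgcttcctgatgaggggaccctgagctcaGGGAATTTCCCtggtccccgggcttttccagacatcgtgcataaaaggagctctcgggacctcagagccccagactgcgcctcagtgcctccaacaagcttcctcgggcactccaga
Cxcl3: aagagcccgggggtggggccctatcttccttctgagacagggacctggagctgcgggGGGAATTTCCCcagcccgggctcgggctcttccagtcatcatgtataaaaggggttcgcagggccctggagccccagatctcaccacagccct
In Cxcl2 and Cxcl3 the capitals cover 2 overlapping matches, 1 on each strand.

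The kB motif was searched on both strands over 300 bases, 250 before to 50 after the start. It was found in 4.35% of the 27025 promoters searched. Of the 10 largest measured rises with a promoter in the table (of 12), 3 held it, and of the 19 called members of the NF-kB list with a promoter (of 21), 6 held it. Among all genes that rose, 37 of 582 promoters held it (6.36%), and among those that fell 34 of 768 (4.43%). A match is a description of letters and not a site.

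The RNA of most receptors and adaptors that sense LPS was not called. Tlr4 read 12.35, 13.15 and 14.02 with LPS and 12.43, 13.76, 14.08 and 14.36 without (difference -0.48 ± 0.52, adjusted p = 0.688). Cd14 read 16.19, 16.58 and 16.50 against 14.03, 16.13, 16.27 and 16.41 (0.71 ± 0.54, adjusted p = 0.529). Both genes overlapped between the groups, and HMB 1 was the low HMB array in each. Cd180 and Ly86, which form a Tlr4-like receptor complex that restrains LPS signalling, fell by 1.73 ± 0.27 and 2.08 ± 0.32. Tlr9, a receptor for bacterial DNA, fell by 2.04 and Tlr1 rose by 1.47 ± 0.35, a call lost on leaving out certain single arrays. Over the 23 matched members, 3 rose and 3 fell, and Acp5, a phosphatase, had the largest rise, of 4.37 ± 0.26. With 3.54% of all probe sets tested higher and 4.83% lower, these small counts are read no further.

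Antimicrobial and acute phase genes rose in 14 of 22 cases and none fell, with the highest median of the lists described here, 2.40. Lcn2, which binds bacterial iron carriers, read 18.20, 17.44 and 17.82 with LPS and 3.72, 4.36, 3.10 and 3.30 without. The measured difference was 14.20 ± 0.36 (adjusted p = 1.13e-07). All 4 HMB arrays were under the floor, and against it the rise was at least 11.21. Saa3, a serum amyloid made by macrophages, read 19.13, 18.76 and 18.92 against 9.40, 8.54, 7.83 and 7.58 and rose by 10.60 ± 0.43. S100a8, a subunit of calprotectin, rose by 5.98 ± 0.49 (at least 3.27). S100a9, the other subunit, differed by -0.11 and was under the floor on all 7 arrays. Hp and Cp, which bind haemoglobin and carry copper, rose by 5.44 and 5.03. The lysozyme gene Lyz2 differed by -0.04.

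The neutrophil marker list holds Lcn2 and S100a8 too, beside the collagenase Mmp8. Its 16 members averaged 4.03 to 4.18 on the HMB arrays and 5.87 to 6.01 on the HMB+LPS arrays, with 1 to 2 and then 4 members above the array's median. Of the 16, those 3 rose, and the defining granule genes Mpo, Elane, Prtn3 and Ngp differed by 0.16, 0.24, 0.21 and -0.46 with no call and were under the floor on all 7 arrays.

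Prostaglandin synthesis moved at both ends of the pathway. Ptgs2, the inducible cyclooxygenase, read 16.38, 16.67 and 16.98 with LPS and 6.28, 5.15, 4.47 and 5.17 without, a rise of 11.41 ± 0.41, or at least 10.07 with HMB at the floor. Ptges, which makes prostaglandin E2, rose by 6.73 ± 0.57, and the phospholipase Pla2g4a by 2.45. Hpgd, which inactivates prostaglandins, read 5.04, 5.52 and 4.24 against 9.24, 11.80, 12.18 and 12.95 and fell by 6.61 ± 0.76, or at least 4.48 with HMB+LPS at the floor. The prostaglandin D synthase Hpgds fell by 2.35 ± 0.31. The leukotriene genes Alox5 (-0.66), Alox5ap (-0.21) and Lta4h (0.06) were not called. In all, 5 of 20 members rose and 2 fell.

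Type I interferon-stimulated genes gave 1 call among 30, Irf7, a factor that amplifies interferon production. Since 3.54% of all probe sets tested rose, 1 of 30 is not read as a result about the list. Irf7 read 17.01, 16.84 and 16.59 with LPS and 11.83, 14.72, 14.47 and 15.27 without (2.74 ± 0.70, adjusted p = 0.0403). The mean of this list was already 12.18, 12.44 and 13.18 on HMB 2, 3 and 4 and 9.48 on HMB 1, against 12.24, 12.37 and 12.95 on the HMB+LPS arrays. HMB 1 was thus the low array, and the median difference was 0.56. The call of Irf7 was lost when HMB 2, HMB 3 or any of the HMB+LPS arrays was left out. Without HMB 1, the median was 0.11, and the list split. Irf7, Mx1 and Usp18 were then called higher, by 1.99, 1.93 and 1.78, and Ifit3, Oas2, Ifit2 and Rtp4 lower, by -2.54, -2.44, -2.14 and -1.94. Over all tested probe sets, 996 were called higher and 1618 lower without HMB 1.

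Ifit3, an interferon-induced antiviral protein, read 9.37 on HMB 1, 13.76, 14.47 and 15.44 on HMB 2, 3 and 4, and 11.40, 11.89 and 12.78 on the HMB+LPS arrays. Its HMB arrays lay on both sides of the HMB+LPS arrays. Mx1, an antiviral GTPase, read 6.97, 9.92, 10.20 and 11.45 on HMB 1 to 4, 12.88 and 12.49 on HMB+LPS 3 and 4 and close to 12 on HMB+LPS 2, so that no array overlapped. The interferon-stimulated response element (ISRE, searched as TTTCNNTTTC on both strands) was found in 12 of the 22 promoters of the list that were in the table, against 3.49% of all 27025. The promoters of Isg15 and Ifit1 are shown with the ISRE in capitals, because neither gene was called (differences of 0.55 and 2.10) though each holds several matches. They lie at chr4:156200799-156200948, reverse strand (Isg15), and chr19:34640759-34640908, forward strand (Ifit1).
Isg15: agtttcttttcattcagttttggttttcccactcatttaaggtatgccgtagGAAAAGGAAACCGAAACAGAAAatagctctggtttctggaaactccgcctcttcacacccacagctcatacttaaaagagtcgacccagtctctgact
Ifit1: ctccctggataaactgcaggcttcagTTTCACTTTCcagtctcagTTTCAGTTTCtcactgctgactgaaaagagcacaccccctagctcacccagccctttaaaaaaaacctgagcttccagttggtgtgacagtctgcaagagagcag
The capitals in Isg15 cover 3 overlapping matches on the strand opposite to the one printed, and those in Ifit1 are 2 separate matches.

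Of 24 matched interferon-inducible GTPases, MHC class II and costimulatory genes, 4 rose and 2 fell. Without HMB 1 these counts were 7 and 3, and with median centring 7 and 2. Cd274, which encodes the T cell inhibitor PD-L1, read 16.74, 17.12 and 17.15 with LPS and 14.70, 12.95, 11.79 and 10.75 without, a rise of 4.46 ± 0.76. The HMB arrays spread widely, with HMB 1 the highest. The guanylate-binding protein Gbp7 rose by 4.96 ± 0.61, the costimulator Cd80 by 2.78 ± 0.44, and the class II chain H2-Ab1 by 2.82 ± 0.34. The class II chain H2-Eb1 fell by 1.70, and H2-Aa differed by -1.12 with no call.

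**Figure D2:**
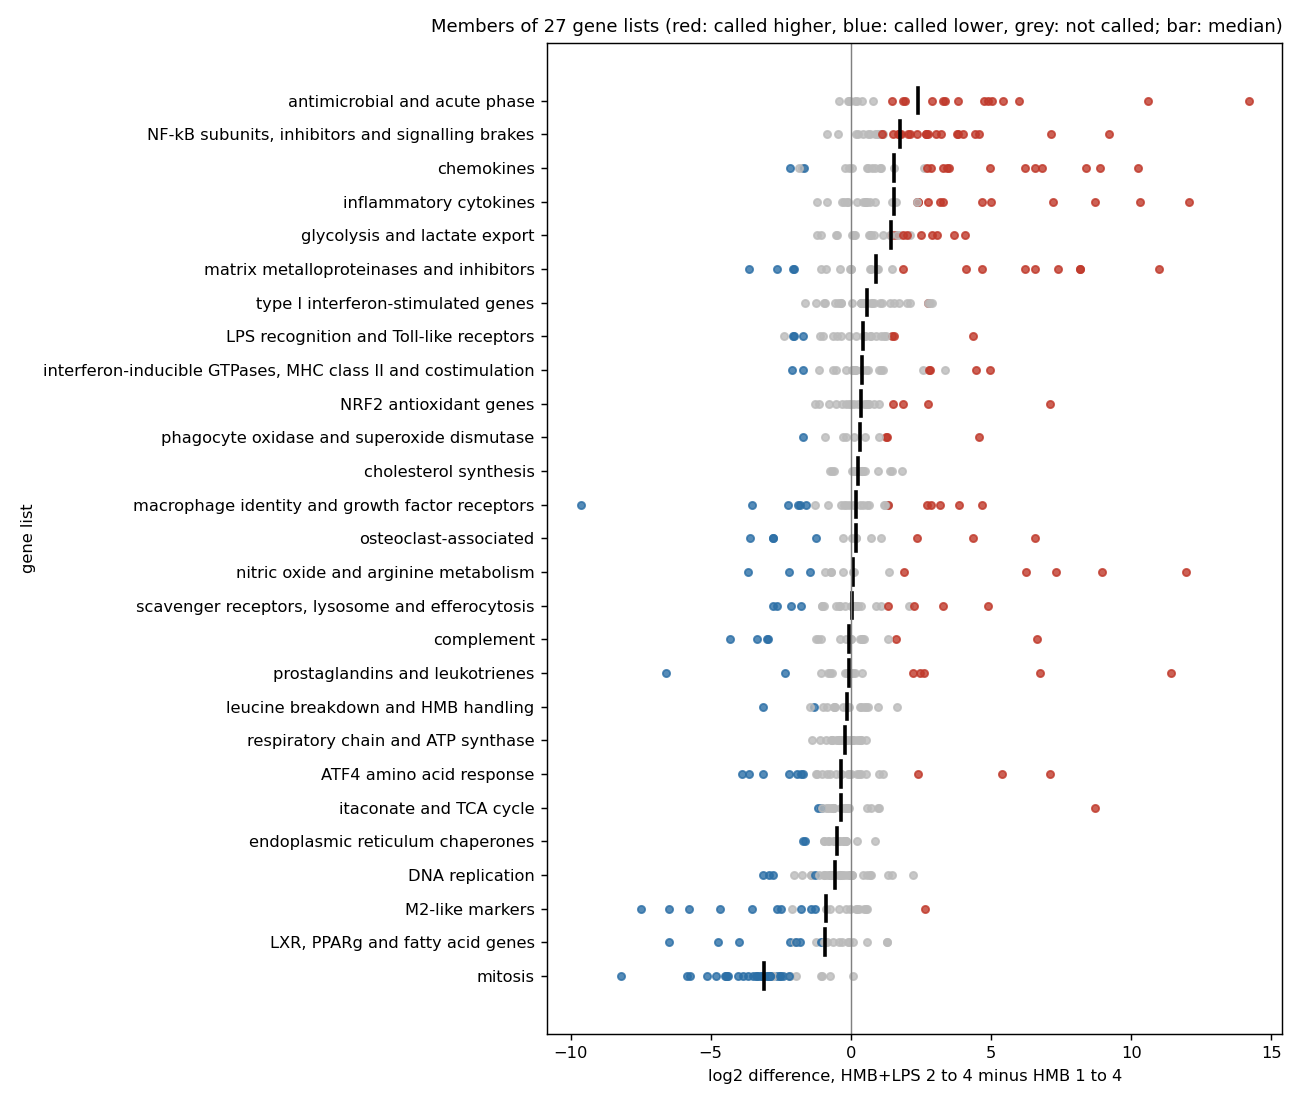
Log2 difference, HMB+LPS 2 to 4 minus HMB 1 to 4 (x axis), of each matched member of 27 gene lists (y axis), with red for called higher, blue for called lower, grey for not called and a black bar for the list's median. The median runs from -3.11 for mitosis to 2.40 for antimicrobial and acute phase genes.

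Among M2-like markers, 10 of 23 fell and 1 rose, with a median of -0.89. Mrc1, the mannose receptor, read 5.45, 6.41 and 4.28 with LPS and 11.96, 12.97, 13.23 and 13.34 without. The groups were far apart and the fall was 7.49 ± 0.52 (adjusted p = 2.74e-05), at least 5.81 since all HMB+LPS arrays were under the floor. Pparg, a lipid-sensing nuclear receptor, read 6.60, 6.77 and 4.34 with LPS, 12.34, 12.73 and 12.44 on HMB 2, 3 and 4, and close to 12 on HMB 1, and fell by 6.47 ± 0.54, or at least 5.31. The folate receptor Folr2 fell by 5.76 ± 0.39, Gas6, a ligand that bridges dying cells to phagocytes, by 4.66 ± 0.47, and its receptor Mertk by 1.77 ± 0.27. Il4ra, the interleukin-4 receptor, was the member that rose, by 2.64. Retnla (-0.17) and Chil3 (0.30), both induced by interleukin-4 in mouse macrophages, were not called and were under the floor on all 7 arrays.

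Cd5l, a secreted protein of resident macrophages, read 5.63, 5.24 and 5.26 with LPS and 14.65, 15.39, 15.23 and 14.78 without. The measured fall was 9.64 ± 0.29 (adjusted p = 2.9e-07). All 3 HMB+LPS arrays were under the floor, and against it the fall was at least 7.95. Fcrls fell by 7.36 ± 0.44. The chemokine receptor Ccr2 fell by 3.53 and Ccr1 rose by 4.69 ± 0.44. The growth factor receptor subunit Csf2rb rose by 2.86 ± 0.26 and the inhibitory Fc receptor Fcgr2b by 3.19 ± 0.26, while Csf1r, the receptor that keeps macrophages alive, differed by -0.82 ± 0.32 (adjusted p = 0.165). The lineage factor Spi1 differed by -0.17 and the macrophage antigen Adgre1 by 0.56, both uncalled. Over 26 identity and growth factor receptor genes, 6 rose and 6 fell. Of 25 scavenger receptor and lysosome genes 4 rose and 4 fell, with the scavenger receptor Msr1 up by 3.27 ± 0.54 and the lysosomal lipase Lipa down by 2.15 ± 0.39.

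Further measured falls, each with all HMB+LPS arrays under the floor, were those of Klk1b11 (6.48 ± 0.61), Pcp4l1 (6.27 ± 0.54), Gpx3, a secreted glutathione peroxidase (6.13 ± 0.52), Rasgrp3, an activator of Ras (6.10 ± 0.27), Mex3b, an RNA-binding protein (6.10 ± 0.39), and Cbr2, a carbonyl reductase (6.04 ± 0.52). Complement moved in both directions. The 3 C1q chains fell, C1qc by 3.35 ± 0.38, C1qb by 2.99 ± 0.41 and C1qa by 2.96, while Cfb, of the alternative pathway, read 13.07, 12.11 and 11.80 with LPS and 5.51, 5.25, 5.98 and 6.07 without, a rise of 6.63 ± 0.37, or at least 5.72. Over 18 members 2 rose and 4 fell (3 and 6 without HMB 1), the fourth being Itgax, a complement receptor chain (-4.33).

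Genes of mitosis fell in 30 of 37 cases and none rose, with a median of -3.11, against 1073 of 22206 probe sets over all tested. Ube2c, the enzyme that marks mitotic cyclins for destruction, read 3.05, 2.44 and 2.65 with LPS and 10.76, 10.95, 10.62 and 11.32 without. Every HMB+LPS array was low, and the measured fall was 8.20 ± 0.29 (adjusted p = 4.72e-07). All 3 were under the floor, and against it the fall was at least 3.85. HMB 1 itself, at 10.76, was below the 95th percentile of its negative controls (11.81). Ccnb2, a mitotic cyclin, read 6.34, 5.68 and 5.79 against 10.25, 12.03, 11.89 and 12.92, a fall of 5.84 ± 0.54, or at least 4.71 with HMB+LPS at the floor. Mki67, the proliferation antigen, read 10.31, 8.53 and 8.32 against 12.14, 12.59, 12.79 and 14.08 and fell by 3.85 ± 0.57. The list mean was 6.86, 6.36 and 5.92 with LPS and 8.89, 9.68, 9.46 and 10.63 without. Without HMB 1, 31 of the 37 fell. In bulk samples, fewer dividing cells and less RNA per cell cannot be told apart.

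Genes of DNA replication were called less, with 4 falls among 38 members and a median of -0.56. E2f2, an activator of S phase genes, fell by 3.14 ± 0.28, the replication factor Mcm10 by 2.92 ± 0.47, the ribonucleotide reductase subunit Rrm2 by 2.79 ± 0.39, and the sliding clamp Pcna by 1.26 ± 0.27. The cyclin Ccne2 (2.21) and E2f1 (1.32) differed in the other direction with no call. Without HMB 1, 9 of the 38 fell. The difference between both lists was not tested.

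The mitotic promoters carried common letters, and 3 are shown because their genes fell together. The capitals mark CCAAT (the NF-Y box) and TTTGAA (the cell cycle homology region) on either strand. They lie at chr2:164769799-164769948, forward strand (Ube2c), chr9:70421535-70421684, reverse strand (Ccnb2), and chr4:118437324-118437473, reverse strand (Cdc20, which activates the same destruction machinery and fell by 4.43).
Ube2c: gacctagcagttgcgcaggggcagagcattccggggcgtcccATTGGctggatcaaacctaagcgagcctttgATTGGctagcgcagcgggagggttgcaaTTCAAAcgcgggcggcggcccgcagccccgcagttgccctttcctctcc
Ccnb2: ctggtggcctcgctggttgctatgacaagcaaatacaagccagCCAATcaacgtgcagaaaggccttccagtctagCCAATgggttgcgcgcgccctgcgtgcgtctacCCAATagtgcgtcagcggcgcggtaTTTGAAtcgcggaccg
Cdc20: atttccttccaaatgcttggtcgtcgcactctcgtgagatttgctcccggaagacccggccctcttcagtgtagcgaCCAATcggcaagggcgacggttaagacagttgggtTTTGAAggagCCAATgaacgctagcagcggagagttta
Over 300 bases, 21 of the 26 called members with a promoter in the table (of 30) held CCAAT, against 37.9% of all 27025, and 23 held TTTGAA, against 18.1%. Among all 768 promoters of genes that fell, 298 held CCAAT (38.8%) and 112 held TTTGAA (14.6%).

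**Figure D3:**
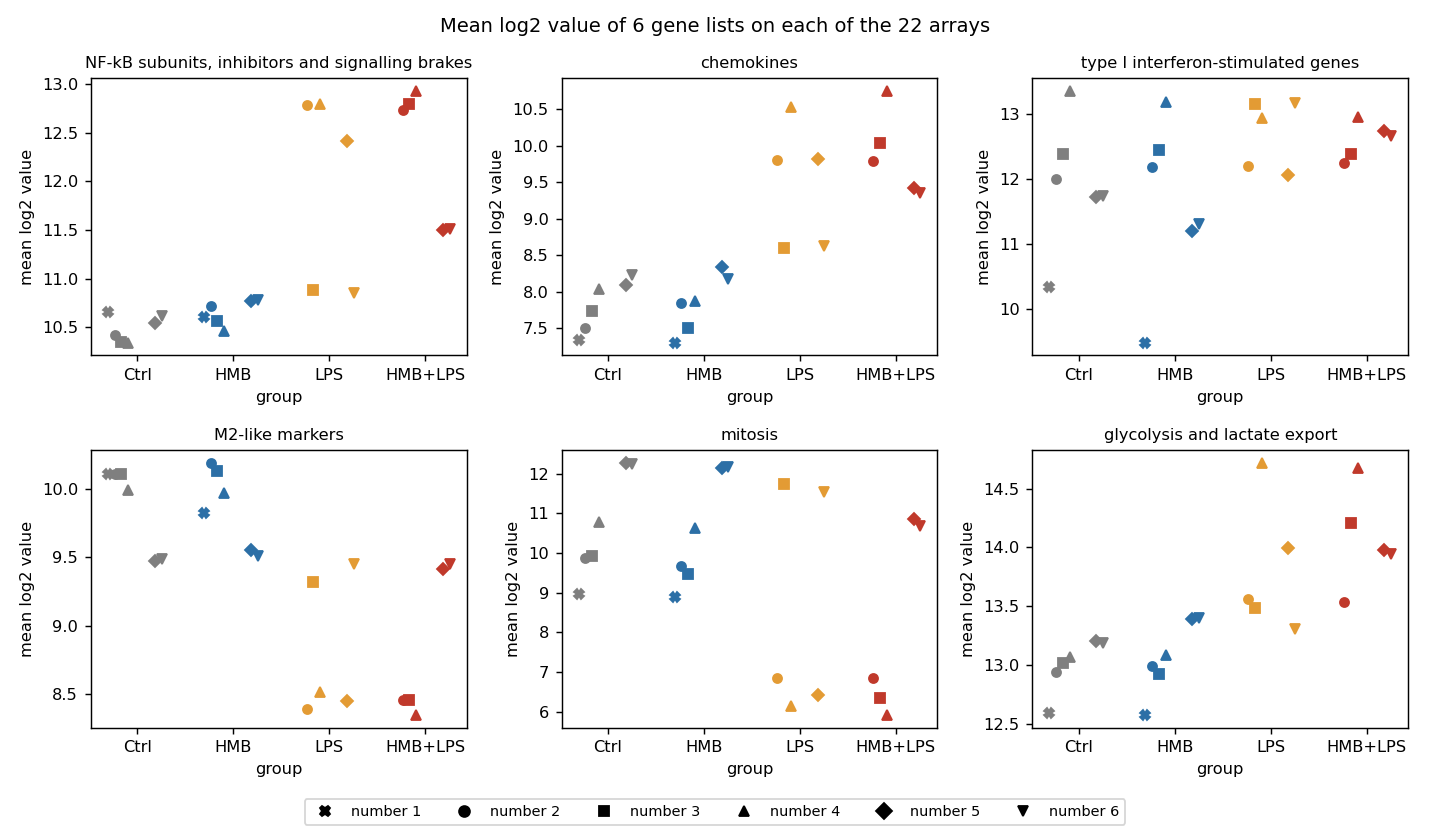
Mean log2 value over the matched members of 6 gene lists (y axis, 1 panel a list) on each of the 22 arrays, by group (x axis) and with a marker shape for each number. In mitosis, HMB+LPS 2 to 4 lie between 5.92 and 6.86 and HMB 1 to 4 between 8.89 and 10.63; in interferon-stimulated genes HMB 1 is the low array at 9.48.

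Metabolic genes moved unevenly. Of 26 genes of glycolysis and lactate export, 9 rose and none fell, with a median of 1.42. Without HMB 1, 10 rose and 1 fell. Pfkfb3, which makes the activator of phosphofructokinase, read 14.88, 15.42 and 16.54 with LPS and 12.30, 11.56, 11.31 and 11.07 without, a rise of 4.06 ± 0.44. The glucose transporter Slc2a1 rose by 3.67 ± 0.49, the oxygen sensor Egln3 by 3.06 ± 0.40, and the hypoxia factor Hif1a by 1.99 ± 0.26. Slc2a3 (-1.05) and Pdk4 (-1.22) were lower with no call. Of 22 itaconate and TCA cycle genes, Acod1, which makes itaconate, rose by 8.70 ± 0.52, while Idh3g and Suclg2 fell by 1.17 ± 0.28 and 1.06 ± 0.28, calls that were lost when certain single arrays were left out. Against 3.54% higher and 4.83% lower over all probe sets tested, the counts of this list are read no further. None of 25 respiratory chain and ATP synthase genes was called, with Uqcrfs1 nearest at -1.12 ± 0.30 (adjusted p = 0.0511). At an unadjusted p under 0.05, 4628 of all probe sets tested passed.

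HMB is made from leucine, and of 19 genes of leucine breakdown and HMB handling none rose and 2 fell. Over all probe sets tested 4.83% fell, so that 2 of 19 is not read as a result about the list, and 1 member was called higher without HMB 1 or with median centring. Slc7a5, which imports leucine, read 7.09, 6.86 and 8.35 with LPS and 9.31, 11.44, 10.82 and 10.64 without, a fall of 3.12 ± 0.53. The mitochondrial transaminase Bcat2, which takes the first step of leucine breakdown, fell by 1.31 ± 0.32 (adjusted p = 0.0356), a call that was also lost when certain single arrays were left out. Slc16a1, a monocarboxylate transporter, differed by 1.65 with no call. None of 19 cholesterol synthesis genes was called, where Sqle was nearest (1.83 ± 0.70, adjusted p = 0.166). Without HMB 1, 2 of the 19 were called lower.

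Among 22 LXR, PPARg and fatty acid genes, 7 fell and none rose, with a median of -0.92. Lpl, a secreted lipase, fell by 4.73 ± 0.36 and Apoe, a lipid carrier, by 3.99 ± 0.42. Apoe read 15.34, 13.55 and 13.87 with LPS and 18.35, 18.08, 18.45 and 18.09 without. The lipid efflux pumps Abca1 (1.29) and Abcg1 (-0.12) were not called.

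The ATF4 amino acid response list split. Slc7a11, the cystine importer, read close to 15 on HMB+LPS 2, 16.18 and 16.47 on HMB+LPS 3 and 4, and 10.95, 8.58, 8.06 and 7.57 without, a rise of 7.09 ± 0.73. Ddit4, which restrains the growth kinase mTORC1 complex, read 13.73, 14.12 and 13.86 against 9.07, 8.46, 8.51 and 8.08 and rose by 5.37 ± 0.30. The serine synthesis enzyme Phgdh read 5.04, 4.63 and 4.83 against 8.96, 8.88, 8.58 and 8.51, a fall of 3.90 ± 0.26, or at least 1.67 with HMB+LPS at the floor. Pck2 fell by 3.65 ± 0.36 and the asparagine synthetase Asns by 1.91. Over 27 members 3 rose and 7 fell. Of 20 NRF2 antioxidant genes, 4 rose and none fell, with haem oxygenase Hmox1 at 2.76 ± 0.46. Without HMB 1, 7 of the 20 rose. Among 10 phagocyte oxidase and superoxide dismutase genes 3 rose and 1 fell. The superoxide dismutase Sod2 of the mitochondrion rose by 4.56 ± 0.27, and Sod1 of the cytosol fell by 1.71 ± 0.30. Of 18 endoplasmic reticulum chaperone genes 2 fell, Sdf2l1 by 1.64 ± 0.29 and Herpud1 by 1.70 ± 0.35, and without HMB 1 the list had 1 rise and 3 falls. As 4.83% of all probe sets tested fell, 2 of 18 is not read as a result about the list.

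Genes of matrix breakdown rose in 9 of 25 cases and fell in 4. Mmp8, the neutrophil collagenase, read 16.27, 17.32 and 17.29 with LPS and 5.36, 6.04, 6.34 and 6.20 without, a rise of 10.98 ± 0.36. Mmp13 rose by 8.16 ± 0.35 and the coagulation factor F10 by 4.11 ± 0.34. The inhibitors Timp2 and Timp3 fell by 3.64 and 2.65, but Timp3 was under the floor on 3 of the 4 HMB arrays too. Of 13 osteoclast-associated genes, Mmp9, Acp5 and Car2 rose, and Dcstamp, Itgb3, Atp6v0d2 and Nfatc1 fell.

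Fibroblast and stroma markers moved with LPS as well. Their 18 members averaged 6.96 to 8.11 on the HMB arrays and 6.39 to 6.64 on the HMB+LPS arrays, with 10 to 12 and 9 to 10 members above the array's median. The averages on the HMB+LPS arrays lay under the floor of those arrays. Of the 18, 10 fell and 2 rose. Col1a2, a collagen chain, read 7.15, 5.47 and 5.61 with LPS and 11.41, 10.23, 10.24 and 9.45 without, and Acta2, smooth muscle actin, fell by 4.11 ± 0.28. The proteoglycans Dcn and Lum went the other way. Dcn read 12.02, 12.27 and 12.78 against 5.00, 4.26, 3.07 and 3.78 and rose by 8.33 ± 0.44 (at least 5.74), and Lum rose by 5.00 ± 0.35 (at least 3.06). The part of such cells in the other results was not tested. Of 12 dendritic cell markers 2 fell, of 15 T, B and NK cell markers 1 fell, of 10 mast cell and basophil markers 1 rose (Hdc), and of 7 erythroid and megakaryocyte markers 1 rose (Pf4). Over all probe sets 3.54% were called higher and 4.83% lower, and with so few members counts of 1 or 2 are read no further.

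The 3 HMB+LPS arrays did not respond alike at every gene. Of genes with a mean above the median, the 8 with the widest range over these arrays, less the range over the HMB arrays, are given as a description. Serpinb2, an inhibitor of plasminogen activators, read 10.59, 12.88 and 17.15 on HMB+LPS 2, 3 and 4 and 4.28 to 6.61 on the HMB arrays. Ccl7, a monocyte attractant, read 10.22, 11.68 and 15.46 against 5.88 to 6.46. In both, HMB+LPS 4 stood high, while all 3 arrays lay above the HMB arrays. Trem1, a receptor that amplifies inflammation, read 6.62, 9.53 and 11.72 against 4.51 to 6.36. Mmp10, Tm4sf1, Gpr84 and Cstdc4 were also highest on HMB+LPS 4. Sik1, a kinase, was the exception, with 12.50, 10.13 and 8.20 and HMB+LPS 2 the highest, a difference of 0.02 ± 0.80. Nos2, Saa3 and Ccl5, in contrast, ranged over less than 1 on the same arrays. A higher number 4 was not confined to HMB+LPS. Without HMB, Il6 read 11.69 and 14.33 on LPS 2 and 4, and Cxcl3 read 12.85 and 15.82. Lcn2 (18.10 and 17.76) and Saa3 (19.13 and 18.92) were lower on LPS 4 than on LPS 2.

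**Figure D4:**
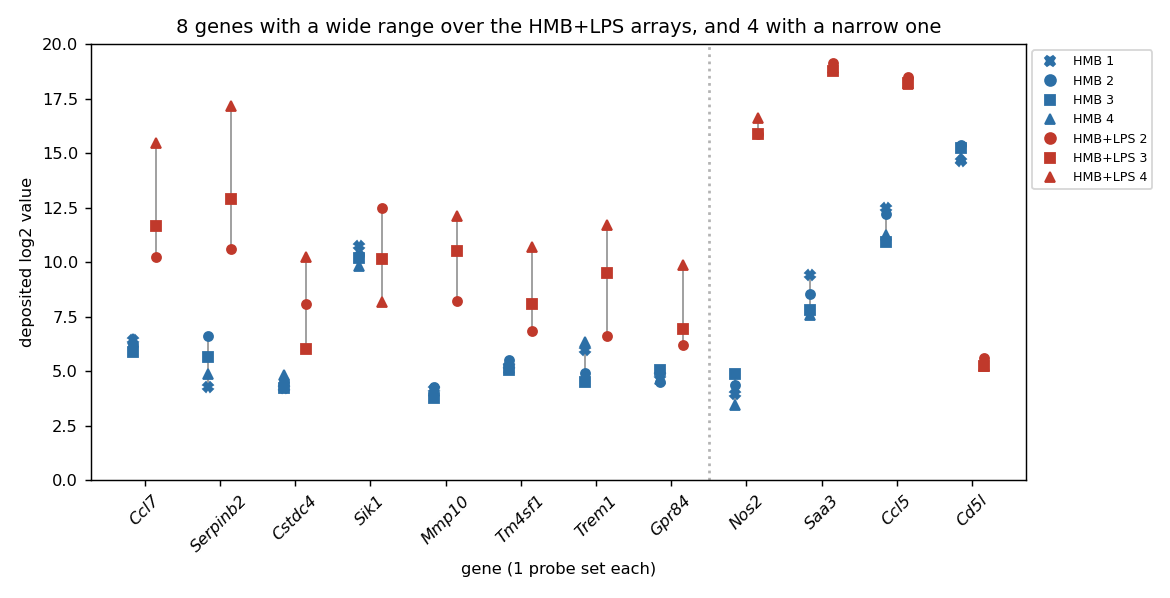
Deposited log2 values (y axis) of the 8 genes with the widest range over HMB+LPS 2 to 4 (red) relative to HMB 1 to 4 (blue), and of Nos2, Saa3, Ccl5 and Cd5l for contrast, with a marker shape for each array number and a grey line from the lowest to the highest array. Serpinb2 spans 10.59 to 17.15 in HMB+LPS.

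The arrays numbered 5 and 6 of the same treatments share no array with the comparison above and gave smaller differences. Their spread came from a fit of 11 arrays that held those of the main comparison, so the calls are not independent of it. There, 166 probe sets were called (0.748%), 139 higher and 27 lower. Leaving out any 1 of these 4 arrays brought the count to between 29 and 44, a limit that the overlaps below share. Of the 1860 calls of the low numbers, 101 rose and 22 fell in both and 6 went opposite ways, so that 6.61% of them and 74.1% of the 166 were called in the same direction. The 787 probe sets that rose had a median difference of 1.93 in the low numbers and 0.61 in numbers 5 and 6, and the 1073 that fell had -1.95 and -0.40. The difference between both effects was itself tested, and 264 probe sets passed (1.19%). The signed difference, low minus high numbers, was positive for 97 and negative for 167. With 1 array left out the count ran from 69 without HMB 5, where 34 were positive and 35 negative, to 674 without HMB 1.

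Nos2 read 9.85 and 9.78 on HMB+LPS 5 and 6 and 4.78 and 5.31 on HMB 5 and 6, a rise of 4.77 (adjusted p = 0.000356), and its effect was 7.18 ± 0.57 larger in the low numbers (adjusted p = 0.000185). Il6 read 3.43 and 3.44 against 2.94 and 2.83, and Arg1 read 3.61 and 4.80 against 3.83 and 4.01. Neither was called in numbers 5 and 6, and the effects in the low numbers were larger by 9.74 ± 0.95 and 8.68 ± 0.84, sizes that rest on HMB readings under the floor. Mrc1 read 10.40 and 10.36 against 10.77 and 10.96, with a fall in the low numbers that was larger by 7.01 ± 0.76. Ube2c read 11.66 and 10.89 against 12.36 and 12.89, and its difference between the effects was -6.85 ± 0.48. Dcn read 4.34 and 3.26 on HMB+LPS 5 and 6 and 3.92 and 4.15 on HMB 5 and 6.

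Not every gene followed that order. Marco, a scavenger receptor for bacteria, read 15.81 and 15.97 on HMB+LPS 5 and 6 and 8.65 and 8.68 on HMB 5 and 6, and 9.11, 8.59 and 8.59 against 3.93, 3.18, 4.33 and 4.08 in the low numbers. Its rise was 7.22 in the former and 4.88 ± 0.33 in the latter, a difference of -2.34 ± 0.48 (adjusted p = 0.0427). All 4 HMB arrays of low number were under the floor for Marco, and against it the rise was at least 2.15. The size of the difference rests on those readings. Atp6v0d2, a proton pump subunit of osteoclasts and macrophages, went opposite ways, with a fall of 2.77 ± 0.52 in the low numbers and a rise of 3.97 in numbers 5 and 6 (difference -6.74 ± 0.78, adjusted p = 0.00149). Cfb rose by 6.63 and 6.50, Acp5 by 4.37 and 5.23, Clec4n, a fungal receptor, by 4.74 and 4.64, and Mmp14 by 4.67 and 4.79, and the tests of these 4 differences did not pass, with estimates of 0.12 ± 0.55, -0.86 ± 0.36, 0.10 ± 0.55 and -0.12 ± 0.59. The mean of the interferon-stimulated list was 11.19 and 11.30 on HMB 5 and 6 and 12.73 and 12.65 on HMB+LPS 5 and 6, with no overlap.

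**Figure D5:**
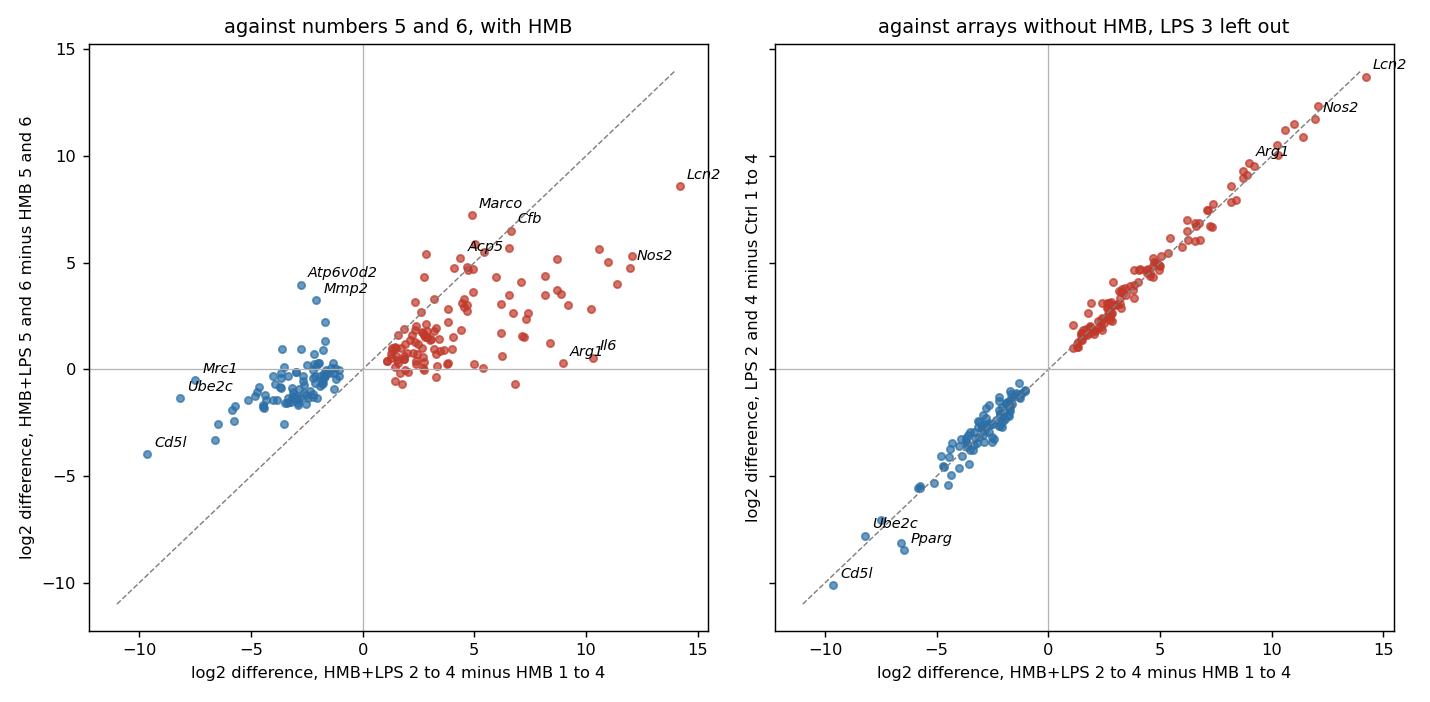
Log2 difference of 212 list members called in the low numbers with HMB (x axis; red higher, blue lower) against the same genes' difference in HMB+LPS 5 and 6 minus HMB 5 and 6 (left, y axis) and in LPS 2 and 4 minus Ctrl 1 to 4 (right, y axis), with a dashed line of equal values. On the left 13 of 117 risen genes lie above the line and 8 are below 0, while of the 95 fallen genes 17 are above 0 and none fell more; on the right none of the 212 changed sign.

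The same numbers without HMB, LPS 2 to 4 against Ctrl 1 to 4, share no array with the comparison either. Their spread came from a fit of 14 arrays that held those of the main comparison, so the calls are not independent of it. The array labelled LPS 3 stood apart from LPS 2 and LPS 4, with Nos2 at 5.64 against 16.18 and 16.29 and Ube2c at 12.14 against 3.45 and 3.11. LPS 5 read like LPS 2 and LPS 4 (Nos2 16.25, Ube2c 2.79) and LPS 6 like LPS 3 (Nos2 5.74, Ube2c 11.84). Whether a label or a batch was exchanged was not tested, so these arrays are named as labelled and the comparison without HMB carries that doubt. With it, 739 probe sets were called (3.33%), and without it 1687 (7.60%). Of the 1860 calls with HMB, 314 rose and 341 fell in both when LPS 3 was kept, and 590 rose and 784 fell in both when it was left out, with none opposite in either case. The latter are 73.9% of the calls with HMB and 81.5% of those without.

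Without HMB and without LPS 3, Nos2 rose by 11.72, Il6 by 10.05, Arg1 by 9.65 and Lcn2 by 13.72, and Cd5l fell by 10.13, Ube2c by 7.79 and Mrc1 by 7.05. With LPS 3 kept, Nos2 rose by 8.19, Il6 by 6.90, Arg1 by 6.56 and Lcn2 by 12.82, and Cd5l fell by 7.93. LPS 3 stood apart at Nos2 and Ube2c themselves, so the values without it depend on that choice. The difference between the LPS effects with and without HMB was tested directly. None of 22206 probe sets passed by limma (0.00%), with LPS 3 kept or left out (0.00%), and 563 and 548 had an unadjusted p under 0.05. With LPS 3 left out, the estimate was 0.23 ± 0.69 for Nos2, 0.25 ± 1.01 for Il6, -0.68 ± 0.80 for Arg1, -0.45 ± 0.73 for Mrc1 and 1.99 ± 0.91 for Pparg. With LPS 3 kept, the estimate was 3.77 ± 2.53 for Nos2, 3.39 ± 2.37 for Il6 and 2.41 ± 2.27 for Arg1. A test that does not pass does not show that the effects were equal.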

How the data were processed

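RNA of mouse bone marrow-derived macrophages was hybridised to Clariom S arrays, 1 array a sample. The authors deposited 1 table of log2 values, with 28846 probe sets and 22 arrays; how background was corrected, how arrays were normalized and with what software is not stated in the labels or methods read here, so a scaling step could have shifted all differences alike. The 6640 control probe sets were left out and the remaining 22206 were tested as deposited, with no filter. The platform annotation named 19572 of them with 1 symbol, 0 with several and 2634 with none (19505 genes). For the 55 genes with several probe sets, the one with the highest mean over 22 arrays was used.

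Differences were tested with limma 3.58.1 in R 4.3.3 (lmFit, eBayes, two-sided), and p-values were adjusted by Benjamini-Hochberg across all 22206 with a threshold of 0.05. Errors of differences are standard errors. The main fit took 7 arrays and 2 means. Numbers 5 and 6 came from a fit of all HMB and HMB+LPS arrays with 4 means, and the comparison without HMB from a fit of the low-numbered arrays of all groups. Arrays give no read depth, and their number limits the precision. Of 786 entries in 34 gene lists, 721 were matched and 65 were not analysed here. Named genes were the 12 largest rises and 12 largest falls whose arrays did not overlap, the called members of every list with the lowest adjusted p (4 at most, or the 2 lowest p where none was called), a fixed set of 20 (Cd38 and Il12b were not matched), the 8 smallest p in each direction for low minus high numbers, and the 8 widest ranges over HMB+LPS; other list members are given as values chosen after these were seen. Where all arrays of 1 group lay under their own negative control median, the difference was also computed with those arrays set to that median. The members and lists were chosen with earlier results of these data known.

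Replicate numbers of HMB and HMB+LPS were checked for pairing by correlating deviations from the group means. Same-numbered arrays gave r = -0.12, 0.05 and 0.25 for numbers 2, 3 and 4, so they were not taken as pairs. The check covered all tested probe sets and these 2 groups only. On numbers 1 to 4 the mitosis list averaged 8.97, 9.88, 9.93 and 10.77 for Ctrl and 8.89, 9.68, 9.46 and 10.63 for HMB. On HMB+LPS 2 to 4 it ran the other way, at 6.86, 6.36 and 5.92. Il6 read 11.69 and 14.33 on LPS 2 and 4 and 12.50 and 15.09 on HMB+LPS 2 and 4. Whether same-numbered arrays share a culture or batch was not tested. Promoter sequences are RefSeq's (GRCm38.p6), and the script was tested on simulated data. Alternatives were the methods' t-test, other normalizations, covariates, filters, array weights and leaving out arrays.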

Additional observations from a re-analysis of the deposited data

Results flagged for a closer look

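Among the 4 HMB arrays of low number, 1 array lay far from the other 3 at 14 of 129 named genes, and 10 of these were HMB 1. Chance flags about 1 in 20 groups. HMB 1 was the lone array for Il10 (log2 value 4.48), Traf1 (8.72), Il1b (6.02), Fcrls (14.49), C1qc (15.20), Klrb1c (4.27), Gas6 (15.93), Msr1 (11.50), Me1 (9.83) and Cd14 (14.03). HMB 3 was the lone array for Cxcl2 (4.28), and HMB 4 for Ccl8 (4.53), Pbk (10.50) and Acta2 (12.21).

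The effect of LPS in the presence of HMB differed between the low numbers and numbers 5 and 6 at 264 probe sets by limma. Among the named genes it was larger in the low numbers for Nos2 (7.18 on the log2 scale), Ptgs2 (7.41), Dcn (8.56), Itgb8 (6.24), Slc7a2 (5.60), Mmp8 (5.92), Lcn2 (5.62) and Arg1 (8.68). The signed difference, low minus high numbers, was negative for Ube2c (-6.85), Cd5l (-5.66), Actg2 (-5.53), Sorl1 (-4.85), Acta2 (-4.41), Gpr162 (-5.66), Tmem176b (-4.96) and Rasgrp3 (-3.66). All of these genes fell with LPS in the low numbers, so a negative value is not a weaker effect there. Cd5l fell by 9.64 in the low numbers and by 3.98 in numbers 5 and 6. Numbers 5 and 6 differ from the low numbers in title only as far as the labels say, and any difference in culture or processing cannot be told apart from the number.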

How the results depend on the processing

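The 1860 calls became 1006 with the methods' t-test after adjustment, 672 with all 5 HMB+LPS against all 6 HMB arrays, 1158 with a filter on dim probe sets (4788 tested) and 5124 with array weights. They ranged from 967 to 2614 when 1 array was left out, and lay between 1432 and 2737 under the other alternatives, among them HMB 1 and HMB+LPS 2 left out together (2618), chosen after seeing the data. Median centring gave 949 higher and 910 lower calls. Same-numbered HMB and HMB+LPS arrays were not taken as pairs, and other pairs of groups were not checked. The mean of the interferon-stimulated list did rise over numbers 1 to 4 in the groups without LPS, and over HMB+LPS 2 to 4 (12.24, 12.37 and 12.95). On LPS 2, 3 and 4 the mean was 12.20, 13.15 and 12.94. In the groups without LPS it was 10.34, 11.99, 12.38 and 13.35 on Ctrl 1 to 4, and 9.48, 12.18, 12.44 and 13.18 on HMB 1 to 4. With the replicate block 2397 were called, 1664 of them among the 1860, and the block gave 246 for numbers 5 and 6, 384 for low minus high numbers, 1119 without HMB (739 without the block) and 0 for with minus without HMB.

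Numbers 5 and 6 gave 29 to 44 calls with 1 array left out and 95 with the dim filter. Low minus high numbers gave 69 to 674 with 1 array left out, the highest without HMB 1 and the lowest without HMB 5. The comparison without HMB gave 238 to 1687, the lowest without LPS 4 and the highest without LPS 3. With minus without HMB gave 0 calls by limma under every alternative run, with 563 at an unadjusted p under 0.05. The causes of these changes were not tested.

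Of 129 named genes 119 were called, and 54 kept their call under each alternative that could be computed for them. The dim filter left only 61 of the 129, and of the 54 it tested 26. Only Tlr4 and Sik1, both uncalled, changed sign. Tlr4 was 0.0873 with control separation as a covariate. Sik1 was -0.0775 with all arrays, -1.91 without arrays of control separation under 4, -0.50 with that covariate, -0.0689 with array weights, -0.94 without HMB 1 and HMB+LPS 2, and -1.10 to 1.06 with 1 array left out. With 1 array left out, calls of named genes near the threshold were lost at least once, with those of Irf7, Tlr1, Suclg2, Bcat2, Idh3g, Cybb, Pcna and Trem1 included, and that of Gpr84 was the one lost without HMB 1. With 3 and 4 arrays, small differences may be missed, and signals near background have little precision.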
